A study of Mus musculus with 24 samples.

Results

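Mitochondrial ribosomal proteins are encoded in the nucleus, made in the cytosol and imported into mitochondria, where they assemble with ribosomal RNAs of the mitochondrial genome. The large subunit joins amino acids into protein and holds the exit tunnel, and the small subunit binds the messenger RNA and decodes it. The finished mitoribosome makes the few, hydrophobic core subunits of the respiratory chain, and the heart, which depends on that chain, is one of the organs affected in human mitoribosome disease. The genes were chosen by symbol, as Mrpl or Mrps followed by a number and at most 1 further letter, which gave 77 of the 24421 genes in the count files: 48 of the large subunit (Mrpl) and 29 of the small subunit (Mrps). They lay on 17 chromosomes, 10 of them on chromosome 11 and 5 on chromosome 1.

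The data were polyA RNA libraries of 24 hearts of male mice aged 14 weeks, on a mixed, mostly C57BL/6N background and a chow diet. The enzymes of Acadl (acting on long-chain) and Acadvl (acting on very long-chain acyl-CoA) are dehydrogenases that begin fatty acid oxidation in mitochondria. Hearts labelled Acadl KO carried Acadvl wt in 4 libraries and Acadvl Het in 5. Hearts labelled Acadl Het carried Acadvl KO in 4 libraries (called Acadvl KO hearts), Acadvl Het in 3 and Acadvl wt in 4, and the wild type, Acadl wt / Acadvl wt, had 4 libraries. All Acadvl KO hearts also carried Acadl Het, so their comparison group was Acadl Het / Acadvl wt. Nothing in the labels states that the hearts came from different mice, so the p-values measure the spread between these samples alone.

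Libraries held 34320838 to 51743114 counts and 17571 to 18351 genes with at least 1 count. Acadvl followed its labels, with a normalised count per library size (CPM, scaled by TMM factors) of 599.2 ± 121 in Acadvl KO hearts and 1632 ± 82.5 in their Acadl Het / Acadvl wt controls (SD over 4 libraries each), but Acadl did not: its reads, in CPM, were at least 1697 in each of the 9 libraries so labelled, against at most 1625 in the other libraries. Counts summed over a gene cannot show a missing exon, and these hearts are therefore called labelled Acadl KO. All 10 cardiomyocyte markers were detected in every library. Reads of the ribosomal RNA precursor Rn45s were 17.3% of 1 library, replicate 1 with both genes Het, and at most 0.558% elsewhere. The liver gene Alb exceeded 10 CPM in 6 libraries, namely all 3 Acadl Het / Acadvl Het libraries, labelled Acadl KO / Acadvl wt replicates 2 and 3, and Acadvl KO replicate 2.

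All 77 genes passed the filter on low counts, and the lowest count of any of them in any library was 421. Per kilobase of exon, the large-subunit genes spanned 5.24 to 227 CPM with a median of 41.8, and the small-subunit genes 9.07 to 118 CPM with a median of 39.1. The large subunit was led by Mrpl42 at 227 ± 23.0 CPM per kb (SD over 24 libraries), Mrpl12, a protein of the flexible stalk, at 165 ± 28.3, and Mrpl30 at 159 ± 10.6. Mrps21 at 118 ± 12.4 CPM per kb, Mrps23 at 82.6 ± 10.2 and Mrps18a at 70.6 ± 15.2 led the small subunit. Mrpl19 at 5.24 ± 0.939 CPM per kb, Mrpl1 at 6.97 ± 0.772 and Mrpl17 at 7.09 ± 0.641 were the lowest of the large subunit, and Mrps25 at 9.07 ± 0.450, and Mrps22 at 11.1 ± 1.65 of the small, followed by Mrps11. These values depend on the exon lengths in the count files. Exons of 10 of the 77 genes overlapped those of another gene and the counts ignored strand, so the values of Mrps23 (with Cuedc1), Mrps6 (with Slc5a3), Mrpl53 (with Ccdc142), Mrpl19, Mrpl24, Mrpl41, Mrpl48, Mrpl49, Mrps25 and Mrps27 are uncertain.

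Both subunits stood higher in sum in the labelled Acadl KO hearts, and the small subunit by the larger proportion. The 48 large-subunit genes summed to 2736, 3004, 2687 and 2653 CPM in the labelled Acadl KO / Acadvl wt libraries and to 2492, 2446, 2425 and 2421 CPM in the wild-type libraries. The 29 small-subunit genes summed to 1384, 1520.5, 1353 and 1341 CPM in labelled Acadl KO / Acadvl wt hearts and to 1193, 1162, 1212 and 1193 CPM in wild type. The 2 genotypes did not overlap for either subunit, and replicate 2 of the labelled Acadl KO hearts was the highest of all 24 libraries in both sums. Labelled Acadl KO / Acadvl Het hearts summed to 2725 ± 196 CPM for the large and 1378 ± 97.6 CPM for the small subunit (SD, n = 5), and their replicate 2, at 2422 and 1237 CPM, lay within the range of the Acadl Het / Acadvl wt libraries. In the other genotypes, Acadvl KO hearts held 2496 ± 111 and 1227 ± 46.1 CPM (SD, n = 4), Acadl Het / Acadvl Het hearts 2544 ± 135 and 1207 ± 55.5 CPM (n = 3), Acadl Het / Acadvl wt hearts 2469 ± 101 and 1185 ± 46.5 CPM (n = 4), and wild-type hearts 2446 ± 32.7 and 1190.0 ± 20.7 CPM (n = 4). Those 4 genotypes overlapped each other in both sums. No test was made of these sums.

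The ratio of the large to the small sum was 1.98 ± 0.00484 in labelled Acadl KO / Acadvl wt hearts (SD, n = 4) and 1.98 ± 0.0398 in labelled Acadl KO / Acadvl Het hearts (n = 5). It was 2.03 ± 0.0429 in Acadvl KO hearts, 2.11 ± 0.0285 in Acadl Het / Acadvl Het hearts (n = 3), 2.08 ± 0.0635 in Acadl Het / Acadvl wt hearts and 2.06 ± 0.0488 in wild-type hearts (n = 4 each where not given). The highest labelled Acadl KO / Acadvl wt library, at 1.99, lay just under the lowest wild-type library, at 2.00, while the labelled Acadl KO / Acadvl Het libraries, up to 2.03, overlapped wild type. Structures of the human mitoribosome place Mrps30 and Mrps18a in the large subunit, and Mrps36 is known as a part of the 2-oxoglutarate dehydrogenase complex. With Mrps30 and Mrps18a moved and Mrps36 set aside, the ratio was 2.32 in labelled Acadl KO / Acadvl wt hearts and 2.38 in wild type. These genotypes then overlapped: wild-type replicate 3, at 2.317, lay under labelled Acadl KO / Acadvl wt replicates 1 and 3, at 2.323 and 2.322. With the classes by symbol, the large sum was 324 CPM higher and the small sum 209.6 CPM higher in labelled Acadl KO / Acadvl wt than in wild-type hearts. Mrps23, Mrps18b, Mrps2 and Mrps18a held 119.6 CPM, or 57%, of the small-subunit difference by symbol, although structures place Mrps18a in the large subunit. Mrpl12 alone held 56.7 CPM, or 17.5%, of the large-subunit difference.

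**Figure D1:**
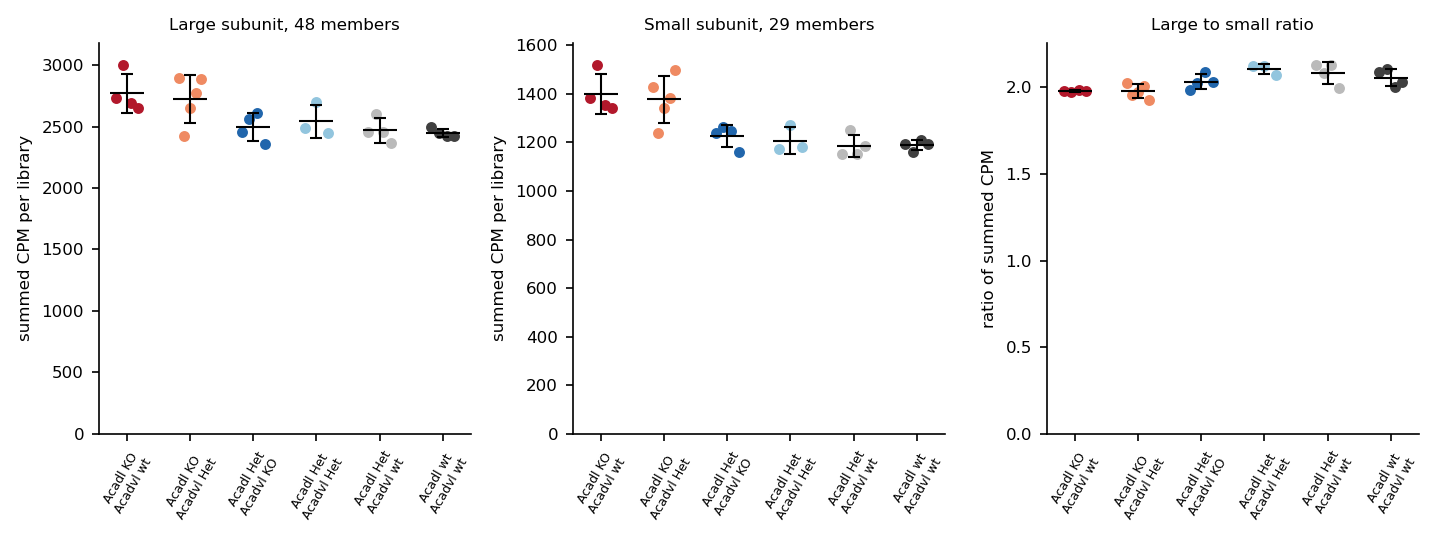
Summed CPM of the 48 large-subunit and 29 small-subunit genes and the ratio of the sums, by genotype label. Points are libraries and bars are mean ± SD. All 4 labelled Acadl KO / Acadvl wt libraries lie above all wild-type libraries in both sums, and the ratio lies near 2 in all 6 genotypes.

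Against wild type, the labelled Acadl KO / Acadvl wt hearts had higher levels of 34 of the 77 genes and lower levels of 5. The rises were led by Mrps2 and Mrps18b of the small subunit. Mrps2, a conserved protein of the small subunit, rose by 1.04 on the log2 scale, Mrps18b by 0.99, Mrps18a by 0.65 and Mrpl45, which lies at the membrane side of the large subunit beside the tunnel exit, by 0.65. Of all 15804 genes tested, 37.2% were called in this comparison (edgeR adjusted p under 0.05), 19.6% higher and 17.6% lower. Against that background, 50.6% of the mitoribosomal genes were called, 44.2% higher and 6.49% lower, with a median log2 change of 0.16 where the median of all genes was -0.02. The large subunit had 20 rises and 4 falls among 48 genes (median 0.15), and the small subunit 14 rises and 1 fall among 29 (median 0.20). The libraries of both genotypes did not overlap in 35 genes that were higher and 9 that were lower, where 18.1% and 17.7% of all genes did not. The members were chosen with results of these data known, so these counts are descriptions.

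Mrps2 stood at 60.3, 65.5, 51.6 and 56.0 CPM in the labelled Acadl KO / Acadvl wt libraries and at 28.2, 27.5, 30.2 and 28.2 CPM in the wild-type libraries. The lowest labelled Acadl KO library was well above the highest wild-type library, and the log2 change of 1.04 had an SE of 0.08 (edgeR adjusted p = 2.877e-08). Mrps18b stood at 66.8, 73.8, 53.7 and 51.1 CPM in the labelled Acadl KO / Acadvl wt libraries, against 29.9, 29.4, 33.0 and 29.4 CPM in the wild-type libraries (log2 change 0.99, SE 0.12, edgeR adjusted p = 2.882e-06). Again no libraries overlapped, although replicates 3 and 4 of the labelled Acadl KO hearts were lower than replicates 1 and 2. Mrps18a was 77.8, 83.2, 66.6 and 70.2 CPM in labelled Acadl KO / Acadvl wt hearts and 46.2, 45.5, 49.0 and 48.3 CPM in wild-type hearts, and Mrpl45 was 63.8, 79.2, 57.4 and 61.7 CPM against 42.3, 46.7, 36.3 and 39.5 CPM. For both genes every labelled Acadl KO library exceeded every wild-type library.

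The remaining rises were smaller and spread over both subunits. Those named by size were Mrpl15, a core large-subunit protein (log2 change 0.59, SE 0.07), Mrpl47 (0.55), Mrpl35 (0.52), Mrps17 (0.51), Mrpl12 (0.51), Mrpl19 (0.48), Mrpl43 (0.47) and Mrps34 (0.41). Mrpl12, the stalk protein that has also been reported to bind the mitochondrial RNA polymerase, stood at 182, 212, 164 and 179 CPM in labelled Acadl KO / Acadvl wt hearts and at 127, 137, 124 and 122 CPM in wild-type hearts. In Mrps17 and Mrpl35 replicate 2 of the labelled Acadl KO hearts lay far above the other 3, at 54.7 CPM against 39.4 to 41.1 CPM for Mrps17, yet those 3 still exceeded the highest wild-type library at 32.4 CPM. The 5 falls were Mrpl39 (-0.27, SE 0.08, edgeR adjusted p = 0.01567), Mrpl49 (-0.25), Mrpl36 (-0.22), Mrps15 (-0.21) and Mrpl42 (-0.19, SE 0.07, edgeR adjusted p = 0.04333). Mrpl39 was 37.1, 39.3, 41.5 and 39.6 CPM in labelled Acadl KO / Acadvl wt hearts and 46.4, 53.0, 42.6 and 45.9 CPM in wild type, so that the groups did not overlap but lay close together. The falls did not hold when single libraries were left out: of the 5, between 0 and 2 were still called whichever of the 8 libraries was removed, 0 without labelled Acadl KO / Acadvl wt replicate 1 or wild-type replicate 2, while 30 to 35 genes were called higher. The number of falls was also 2 with DESeq2 size factors, 2 without Rn45s counts and 1 without the filter on low counts. All groups are of bulk tissue, in which fewer cells of a type cannot be told apart from less RNA per cell.

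Within RNA isolation batch 2 alone, with 3 labelled Acadl KO / Acadvl wt and 2 wild-type libraries, 23 genes were called (22 higher, 1 lower). Batch 1 held 1 labelled Acadl KO / Acadvl wt and 2 wild-type libraries, too few to weigh a lost call, and called 1 gene there. In either batch 0 of the 39 calls had the opposite sign. Without the 6 libraries above 10 CPM of Alb, 23 of the 39 calls held (21 of 23 higher). The 12 hepatocyte markers summed to 57 to 210 CPM in the labelled Acadl KO / Acadvl wt libraries and to 53 to 72 CPM in wild type, with 9 and 8 of the 12 detected in every library and none at 0 throughout a group. The 10 cardiomyocyte markers summed to 93500 to 115000 CPM in labelled Acadl KO / Acadvl wt hearts and to 97900 to 108000 CPM in wild type. Of these markers, 2 hepatocyte genes were called higher and 2 cardiomyocyte genes lower. The part of these cells in the result was not tested. The log2 changes without the Alb libraries were 1.03 for Mrps2, 0.94 for Mrps18b and 0.64 for Mrps18a, all still called, while Mrps34 at 0.31, Mrpl36 at -0.20, Mrpl49 at -0.30 and Mrps15 at -0.23 no longer were.

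**Figure D2:**
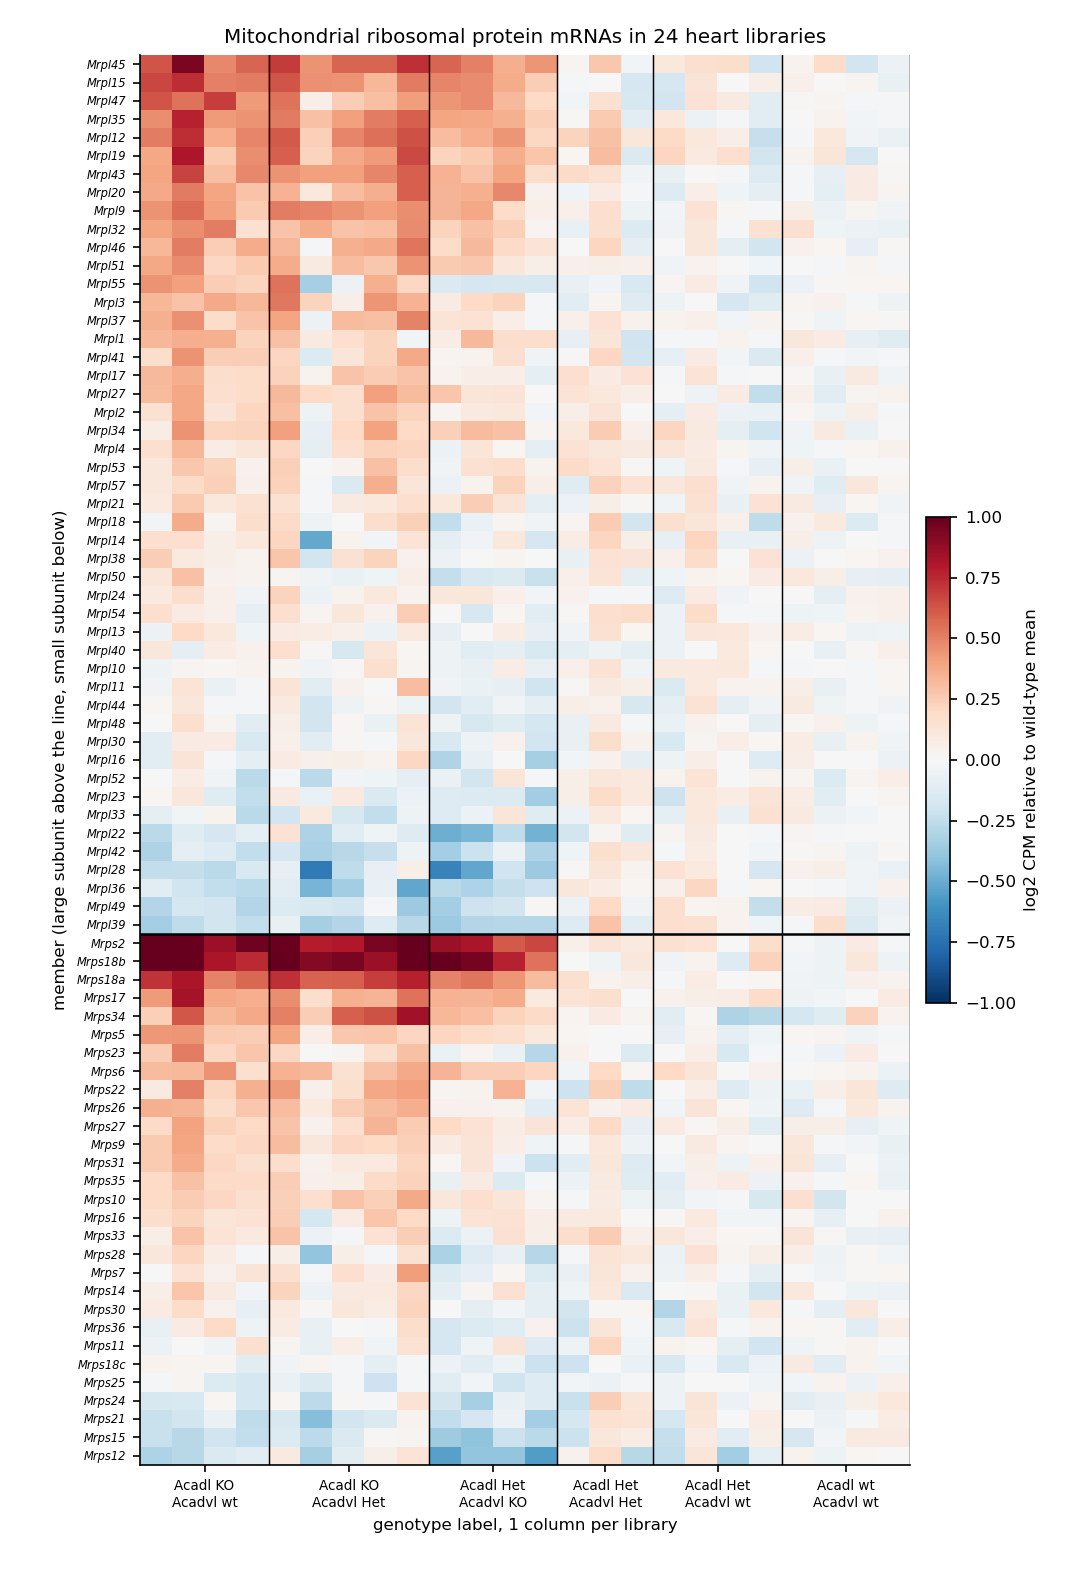
Log2 CPM of each gene in each library relative to its wild-type mean, with colour limits at -1 and 1. Rows are ordered within each subunit by the log2 change of labelled Acadl KO / Acadvl wt hearts against wild type; columns are libraries grouped by genotype label. The rows of Mrps2, Mrps18b and Mrps18a are red in all 13 libraries labelled Acadl KO or Acadvl KO.

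The bases before the start of 6 genes are shown as the regulatory sequence next to the largest rises and falls. Each line gives the 250 bases upstream of the RefSeq start (GRCm38.p6), read 5′ to 3′ along the gene's strand. Shown are the 4 largest rises and the 2 largest falls against wild type whose upstream bases lie in no gene of the count files, their own included. Mrpl39 was left out because these bases reach into its own span. Capitals mark matches to 1 of 5 motifs named after the sequences.
Mrps2, chr2:28467816-28468065, plus strand: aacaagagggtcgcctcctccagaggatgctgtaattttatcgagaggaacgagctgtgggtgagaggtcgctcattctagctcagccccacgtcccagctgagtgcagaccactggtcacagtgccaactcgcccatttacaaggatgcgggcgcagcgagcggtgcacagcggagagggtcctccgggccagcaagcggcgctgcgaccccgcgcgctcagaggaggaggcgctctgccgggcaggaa
Mrps18b, chr17:35916441-35916690, minus strand: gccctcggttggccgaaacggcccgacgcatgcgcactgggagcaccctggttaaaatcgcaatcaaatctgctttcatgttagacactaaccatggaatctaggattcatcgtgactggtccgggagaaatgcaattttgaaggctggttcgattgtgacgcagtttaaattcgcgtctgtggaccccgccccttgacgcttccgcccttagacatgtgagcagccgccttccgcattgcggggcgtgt
Mrpl45, chr11:97315466-97315715, plus strand: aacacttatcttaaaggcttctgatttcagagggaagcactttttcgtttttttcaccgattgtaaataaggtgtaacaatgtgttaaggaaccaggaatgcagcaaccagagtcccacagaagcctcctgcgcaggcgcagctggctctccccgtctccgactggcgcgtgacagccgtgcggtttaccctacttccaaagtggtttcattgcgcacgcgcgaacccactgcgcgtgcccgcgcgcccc
Mrps18a, chr17:46110754-46111003, plus strand: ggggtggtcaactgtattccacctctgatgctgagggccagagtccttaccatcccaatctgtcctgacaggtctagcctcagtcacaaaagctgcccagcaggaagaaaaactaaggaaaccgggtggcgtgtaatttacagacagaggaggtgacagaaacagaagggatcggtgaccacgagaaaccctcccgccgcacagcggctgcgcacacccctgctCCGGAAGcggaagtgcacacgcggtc
Mrpl36, chr13:73330759-73331008, plus strand: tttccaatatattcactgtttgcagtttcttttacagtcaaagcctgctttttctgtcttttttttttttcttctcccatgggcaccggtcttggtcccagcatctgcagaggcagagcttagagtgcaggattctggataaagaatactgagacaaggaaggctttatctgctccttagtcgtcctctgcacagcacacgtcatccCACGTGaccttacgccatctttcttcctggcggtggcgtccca
Mrps15, chr4:126046678-126046927, plus strand: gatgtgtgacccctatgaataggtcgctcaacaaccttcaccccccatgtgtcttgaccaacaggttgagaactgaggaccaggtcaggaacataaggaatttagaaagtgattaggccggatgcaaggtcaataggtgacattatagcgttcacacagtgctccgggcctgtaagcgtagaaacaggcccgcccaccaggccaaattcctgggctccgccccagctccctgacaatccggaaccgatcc

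RefSeq windows from 250 bases before to 50 after the start were found for 68 of the 77 genes, and the others were Mrps28, Mrps34, Mrps35, Mrpl4, Mrpl13, Mrpl15, Mrpl19, Mrpl38 and Mrpl54. The motifs were searched on both strands and no 2 of them overlapped in these windows. The ETS family motif CCGGAAG was in 36.8% of the mitoribosomal genes with a window (25 of 68) and in 9.93% of all genes with one. Among genes called higher in labelled Acadl KO / Acadvl wt hearts than in wild type it was in 33.3% (10 of 30), against 45.5% (15 of 33) of those not called and 0 of the 5 that were lower. The consensus of YY1 was in 7.35% of the mitoribosomal genes and 0.755% of all genes, and that of NRF1 in 4.41% and 1.07%. The E-box CACGTG was in 7.35% and 8.09%, and the element TGATGNAA, bound by C/EBP and ATF family dimers, in 0 of 68 mitoribosomal genes and 4.51% of all genes. In the sequences above the capitals are the ETS motif in Mrps18a and the E-box in Mrpl36, and the windows of Mrps2, Mrpl45 and Mrps15 held none of the 5 motifs. An ETS match in Mrps18b and a YY1 match in Mrps18a lay in the 50 bases after the start, which are not printed. All genes with a window numbered 27025, against 15804 genes tested, and no share was taken over tested genes alone. Whether other genes expressed in these hearts have like shares was therefore not tested. A match is a description of letters and does not show binding.

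When both labelled Acadl KO genotypes were set against both Acadl Het genotypes with the same Acadvl alleles, 36 mitoribosomal genes were higher and 8 lower, at 26.7% and 27.9% of all genes (54.7% in either direction). The leading genes were Mrps18b (log2 change 0.96, SE 0.08, edgeR adjusted p = 1.737e-08), Mrps2 (0.87, SE 0.06), Mrps18a (0.61), Mrpl15 (0.56), Mrpl45 (0.55), Mrps34 (0.55), Mrpl35 (0.48), Mrpl47 (0.45), Mrpl43 (0.44), Mrpl3 (0.41) and Mrpl19 (0.40). Mrpl3, beside the peptidyl transferase centre, and Mrpl44 are genes whose mutations cause cardiomyopathy in humans. Mrpl3 was 83.3 to 115 CPM in labelled Acadl KO / Acadvl Het hearts, 97.0 to 104 CPM in labelled Acadl KO / Acadvl wt hearts and 71.0 to 81.1 CPM over both Acadl Het genotypes, without overlap, whereas Mrpl44 differed by 0.01 (95% interval -0.09 to 0.10). The small subunit had 16 rises and 2 falls (median 0.20) and the large subunit 20 rises and 6 falls (median 0.09). Falls were seen in Mrpl36 (-0.32, SE 0.06), Mrpl39 (-0.29), Mrpl28 (-0.25), Mrpl42 (-0.24), Mrpl49 (-0.23), Mrps21 (-0.20), Mrpl52 (-0.14) and Mrps15 (-0.13). Of these 8 falls 4 were called without Acadl Het / Acadvl Het replicate 2. Mrpl52 lost its call for 10 of the 16 libraries left out in turn and Mrps15 for 12. Mrps15 was also not called by DESeq2 (adjusted p = 0.05169) or limma voom (adjusted p = 0.05545).

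Many of these calls had overlapping libraries: all libraries labelled Acadl KO exceeded all Acadl Het libraries in 16 genes and lay below them in 2, Mrpl42 and Mrpl36, where 10.4% and 7.92% of all genes did. Mrps2 held 56.5, 49.1, 49.6, 55.1 and 60.2 CPM in labelled Acadl KO / Acadvl Het hearts and 29.5, 31.2 and 30.6 CPM in Acadl Het / Acadvl Het hearts. For Mrps18b the values were 63.4, 57.3, 58.9, 55.4 and 64.4 CPM against 30.5, 29.6 and 32.9 CPM in the same genotypes. Neither gene's libraries overlapped. Within batch 2 alone 33 genes were called and within batch 1 alone 19. No Acadl Het / Acadvl Het library remained without the Alb libraries, and both labelled Acadl KO genotypes set against Acadl Het / Acadvl wt alone, no longer matched in Acadvl alleles, gave 37 calls. Of the 10 cardiomyocyte markers 5 fell and 0 rose in this comparison, of the 12 hepatocyte markers 7 fell and 0 rose, of 6 atrial markers 4 fell (median -1.64) and of 7 fibroblast markers 4 fell (median -0.35), with 0 rises in either list. Fibroblast markers summed to 781 to 962 CPM in labelled Acadl KO / Acadvl Het hearts and 871 to 1230 CPM in Acadl Het / Acadvl Het hearts, and atrial markers to 191 to 2010 CPM and 394 to 447 CPM in the same genotypes. The hepatocyte sums were 51.5 to 89.3 CPM in labelled Acadl KO / Acadvl Het hearts and 131 to 458 CPM in Acadl Het / Acadvl Het hearts, and their part in the result was not tested.

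**Figure D3:**
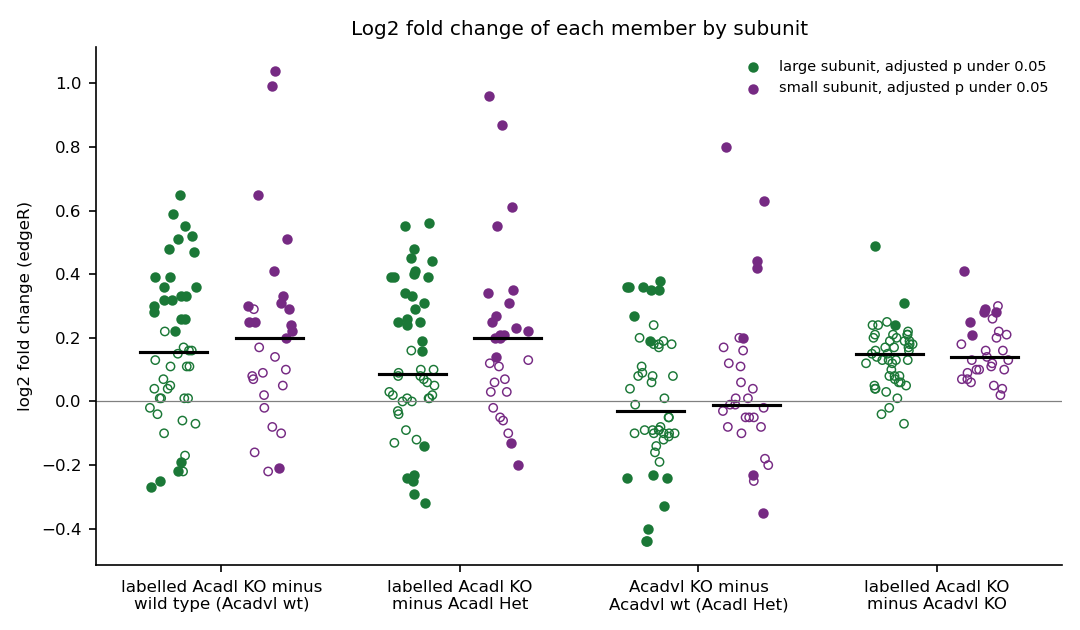
Log2 fold changes of the 48 large-subunit (green) and 29 small-subunit (purple) genes in 4 comparisons, 1 point per gene, filled where the edgeR adjusted p was under 0.05, with the median as a black line. The medians are above 0 in both comparisons of the labelled Acadl KO with a control and near 0 for Acadvl KO.

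In Acadvl KO hearts, set against Acadl Het / Acadvl wt hearts, 13 mitoribosomal genes were higher and 9 lower, a division close to that of all genes, of which 12.9% were higher and 11.5% lower (24.4% in either direction). The median log2 change of the 77 genes was -0.01, with -0.03 for the large subunit (8 rises, 7 falls) and -0.01 for the small (5 rises, 2 falls). Libraries did not overlap in 17 genes that were higher and 9 that were lower, where 11.7% of all genes did so in each direction. Mrps18b rose, its log2 change being 0.80 (SE 0.12, edgeR adjusted p = 4.969e-05), and so did Mrps2, at 0.63 (SE 0.08, edgeR adjusted p = 1.462e-05). The others that rose were Mrps34 (0.44), Mrps18a (0.42), Mrpl45 (0.38), Mrpl15 (0.36), Mrpl20 (0.36), Mrpl43 (0.36), Mrpl35 (0.35), Mrpl47 (0.35), Mrpl12 (0.27), Mrps5 (0.20) and Mrpl9 (0.19).

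Mrps18b was 64.9, 59.0, 51.9 and 44.3 CPM in Acadvl KO hearts and 29.7, 31.2, 27.9 and 35.7 CPM in Acadl Het / Acadvl wt hearts, without overlap. Mrps2 was 51.8, 50.1, 43.6 and 45.4 CPM in Acadvl KO hearts and 31.7, 31.3, 28.6 and 32.2 CPM in Acadl Het / Acadvl wt hearts, again without overlap. The largest falls were in Mrpl22, which lines the exit tunnel (-0.44, SE 0.08, edgeR adjusted p = 0.0006247), Mrpl28 (-0.44, SE 0.12), Mrpl39 (-0.40), Mrps12, the decoding-centre protein (-0.35), Mrpl36 (-0.33), Mrpl42 (-0.24), Mrpl23, which sits at the tunnel exit (-0.24), Mrpl50 (-0.23) and Mrps15 (-0.23). Mrpl22 was 12.6, 12.8, 14.8 and 12.7 CPM in Acadvl KO hearts and 17.9, 18.8, 17.6 and 17.4 CPM in Acadl Het / Acadvl wt hearts. Mrps12 was 20.9, 23.3, 23.3 and 20.7 CPM in Acadvl KO hearts, all below 25.8, 33.2, 24.0 and 28.7 CPM in Acadl Het / Acadvl wt hearts.

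Of the 9 falls 3 were called without Acadvl KO replicate 1, and 5 without Acadl Het / Acadvl wt replicate 2 or replicate 4, while 11 to 16 genes were called higher whichever library was left out. Within batch 2 alone 11 genes were called in this comparison, and 0 within batch 1 alone, which held 1 Acadvl KO library; without the Alb libraries 14 were, with 10 higher and 4 lower. Mrps18b at 0.78, Mrps2 at 0.61, Mrpl22 at -0.42 and Mrpl39 at -0.39 kept their calls without those libraries, whereas Mrpl28 at -0.41 and Mrps12 at -0.36 did not. The cardiomyocyte markers summed to 88100 to 105000 CPM in Acadvl KO hearts and 95600 to 111000 CPM in Acadl Het / Acadvl wt hearts, with 5 of the 10 called lower. The hepatocyte markers summed to 81 to 183 CPM in Acadvl KO hearts and 63.9 to 86.9 CPM in Acadl Het / Acadvl wt hearts, with 0 of the 12 called by edgeR. The part of either in the result was not tested.

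**Figure D4:**
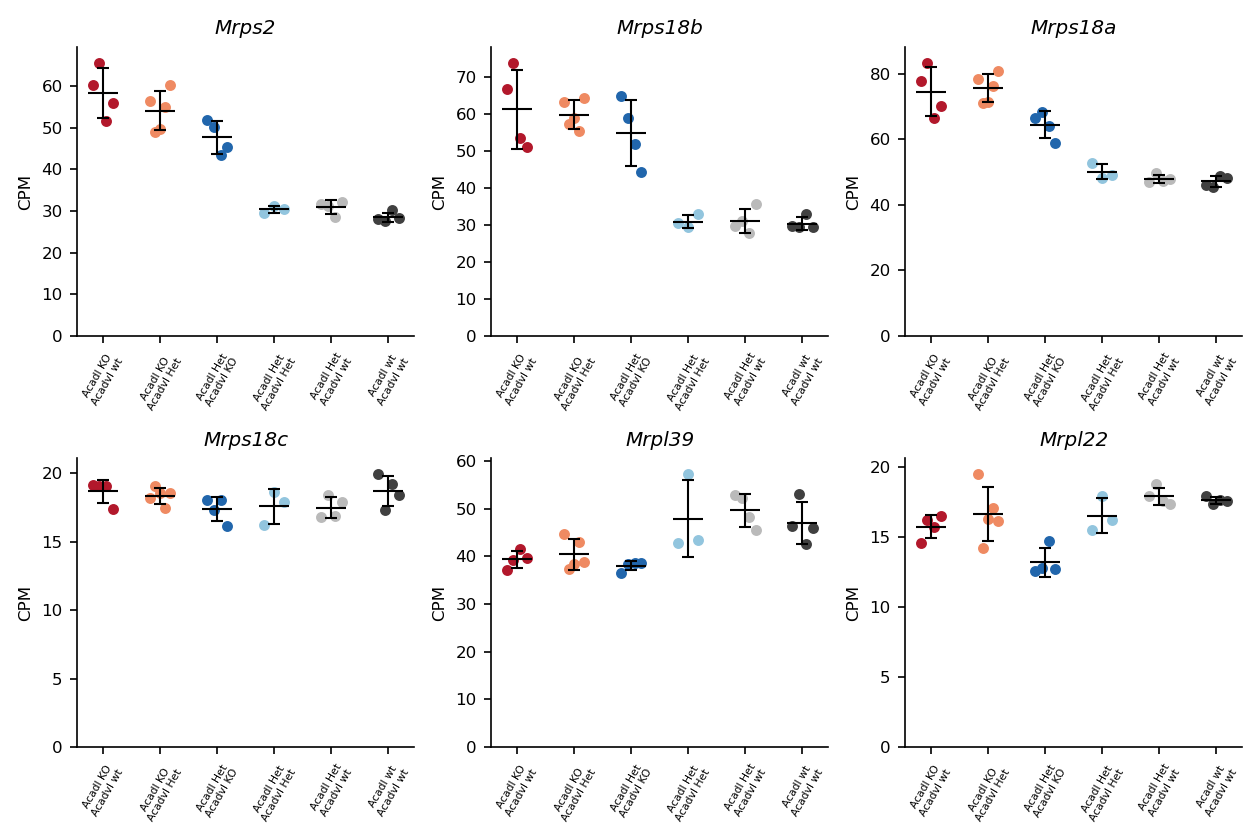
CPM per library of 6 genes by genotype label, with mean ± SD. Mrps2, Mrps18b and Mrps18a separate the 13 libraries labelled Acadl KO or Acadvl KO from the other 11, Mrps18c does not, and Mrpl22 is lowest in Acadl Het / Acadvl KO.

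The comparison of labelled Acadl KO / Acadvl wt hearts with wild type and that of Acadvl KO with Acadl Het / Acadvl wt hearts share no library, so their calls could be counted against each other. Both come from the same fit, with a shared batch term and estimate of spread, so they are not fully independent. All 13 genes that rose in Acadvl KO hearts also rose in labelled Acadl KO hearts, which is 100% of the Acadvl KO list and 38.2% of the 34 rises in labelled Acadl KO. The corresponding shares over all genes were 74.0% and 48.6%. Of the falls, 4 were shared (Mrpl36, Mrpl39, Mrpl42 and Mrps15), 44.4% of the 9 in Acadvl KO and 80.0% of the 5 in labelled Acadl KO hearts, where over all genes the shares were 68.2% and 44.7%. Both counts of falls moved by more than 1.5 times with single libraries, as given above, and Mrpl36 lost its call against wild type for each of the 8 libraries left out, so these shares of falls are uncertain. No mitoribosomal gene was called in opposite directions. The 21 genes that rose in labelled Acadl KO / Acadvl wt hearts but were not called in Acadvl KO hearts included Mrps17 (log2 change 0.51 and 0.20), Mrpl19 (0.48 and 0.18), Mrps23 (0.31 and -0.08) and Mrpl55 (0.33 and -0.14). Mrpl55 lost its call against wild type for 6 of the 8 libraries left out. A missing call is no test of a difference, and Mrps17 and Mrpl19 were not called in the direct comparison given next.

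**Figure D5:**
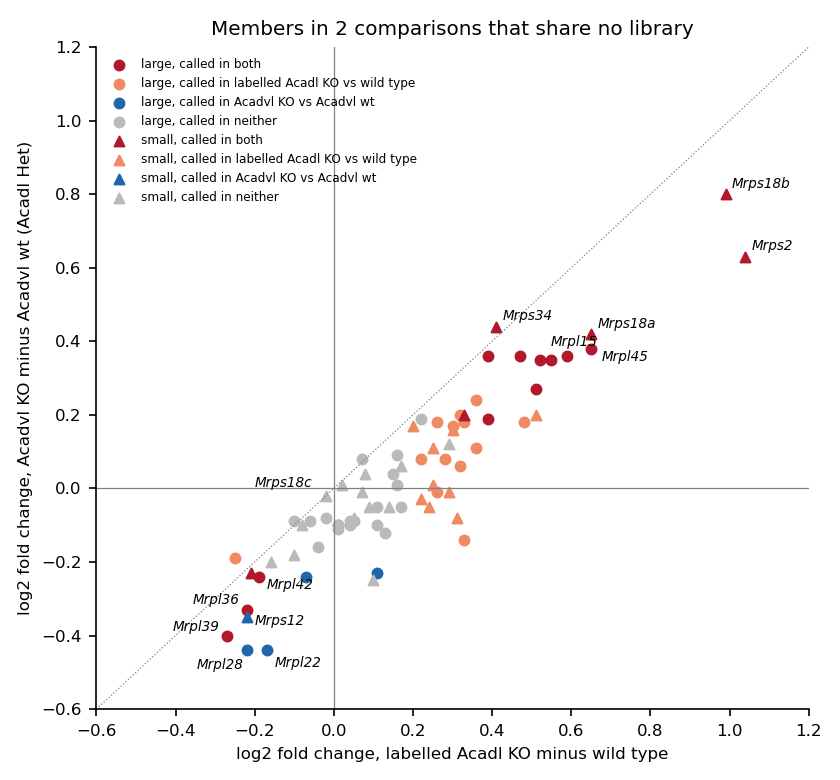
Log2 fold change of each gene in Acadvl KO against Acadl Het / Acadvl wt hearts (vertical) and in labelled Acadl KO / Acadvl wt against wild-type hearts (horizontal). Circles are large-subunit and triangles small-subunit genes, colours show the calls, and the dotted line marks equal change; Mrps2 lies at 1.04 and 0.63, and most genes lie below the line.

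Set directly against Acadvl KO hearts, labelled Acadl KO / Acadvl wt hearts had higher values in 74 of 77 mitoribosomal genes, with a median log2 difference of 0.15, and 9 were called higher and 0 lower, where 1.77% of all genes were higher and 2.66% lower (4.43% in either direction). Libraries did not overlap in 19 genes, all higher, where the shares of all genes were 4.26% higher and 3.78% lower. The median log2 difference over all genes was 0. Other mitochondrial lists stood higher alike: oxidative phosphorylation subunits in 83 of 83 genes (median 0.16, 2 called), assembly factors in 22 of 25 (0.12, 3 called), translation factors in 14 of 16 (0.17, 1 called) and transcription and RNA processing genes in 11 of 12 (0.21, 1 called). Cytosolic ribosomal proteins were higher in 65 of 84 (median 0.05, 0 called by edgeR). Cardiomyocyte markers were higher in 8 of 10 and lower in 2 (median 0.13, 0 called by edgeR), a median near that of the mitoribosomal genes. Their sums were 93500 to 115000 CPM in labelled Acadl KO / Acadvl wt hearts and 88100 to 105000 CPM in Acadvl KO hearts. Fibroblast markers were lower in 7 of 7 (median -0.59, 1 called), at a sum of 801 to 1050 CPM in labelled Acadl KO / Acadvl wt hearts and 895 to 1680 CPM in Acadvl KO hearts. Leukocyte markers were lower in 5 of 5 (median -0.69, 0 called by edgeR), at 46.5 to 74.5 CPM and 63 to 132 CPM. The part of these cells in the difference was not tested. The 9 were Mrpl55 (0.49, SE 0.12, edgeR adjusted p = 0.02688), Mrps23 (0.41, SE 0.08, edgeR adjusted p = 0.008948), Mrpl50 (0.31), Mrps2 (0.29), Mrps26 (0.28), Mrps31 (0.28), Mrps35 (0.25), Mrpl17 (0.24) and Mrps9 (0.21), of which 6 belong to the small subunit. In Mrps2 the libraries of both genotypes overlapped. Mrps23, whose exons overlap Cuedc1, was 154, 184, 149 and 157 CPM in labelled Acadl KO / Acadvl wt hearts and 124, 132, 123 and 106 CPM in Acadvl KO hearts. Mrpl55 was 64.4, 62.7, 56.0 and 55.1 CPM in labelled Acadl KO / Acadvl wt hearts against 42.6, 42.1, 42.3 and 42.1 CPM in Acadvl KO hearts. These calls rested on single libraries: 0 remained without labelled Acadl KO / Acadvl wt replicate 2, 2 without its replicate 1, 4 without its replicate 4, and 2 without Acadvl KO replicate 3 or replicate 4. None was called within batch 2 alone or without the Alb libraries, where the median difference was 0.15 and 0.11; batch 1 held 1 library of each genotype, so its value is no check.

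The other comparisons called no mitoribosomal gene. Labelled Acadl KO / Acadvl Het against labelled Acadl KO / Acadvl wt hearts called 0 of 77 with edgeR, DESeq2 and limma voom, with 3 at an unadjusted p under 0.05 and log2 changes from -0.24 to 0.19, and 0% of all genes were called. Acadl Het / Acadvl wt against wild type called 0 with each tool and 0 at an unadjusted p under 0.05 (log2 changes -0.16 to 0.12; 0% of all genes). Acadl Het / Acadvl Het against Acadl Het / Acadvl wt called 0 with each tool and 0 unadjusted (-0.12 to 0.21; 0.00633% of all genes, 1 gene). The interaction of the labelled Acadl KO with Acadvl Het likewise called 0 with each tool and 0 unadjusted, among 0% of all genes. A test for any difference among the 6 genotypes called 45 of 77, 28 of the large and 17 of the small subunit, beside 51.1% of all genes. Isolation batch 2 against batch 1 called 0 genes with each tool, with 3 at an unadjusted p under 0.05, beside 0.0127% of all genes.

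The related genes Mrps18a, Mrps18b and Mrps18c descend from a bacterial small-subunit protein, and in human structures Mrps18a lies in the large and the other pair in the small subunit. In these data Mrps18a and Mrps18b rose in the labelled Acadl KO and the Acadvl KO comparisons and Mrps18c was called in none. Mrps18c stood at 18.7 ± 0.842 CPM in labelled Acadl KO / Acadvl wt hearts (SD, n = 4), 17.4 ± 0.899 CPM in Acadvl KO hearts (n = 4) and 18.7 ± 1.12 CPM in wild type (n = 4). Its log2 change against wild type was -0.02 with a 95% interval from -0.14 to 0.11. Across the 77 genes, 29 were called in none of the 4 comparisons above, 23 in 3 of them and 1, Mrps2, in all 4. Mrps2 lost its call of labelled Acadl KO against Acadvl KO for 5 of the libraries left out in turn. Of all genes, 37.2%, 54.7%, 24.4% and 4.43% were called in these comparisons, in the order given above. Neither this count nor the next was made over all genes, so both describe the 77 genes alone. The 8 genes whose change stayed within 0.1 of 0 on the log2 scale in the comparisons of labelled Acadl KO with wild type, labelled Acadl KO with Acadl Het and Acadvl KO with Acadvl wt were Mrpl11, Mrpl13, Mrpl24, Mrpl30, Mrpl54, Mrps11, Mrps18c and Mrps36.

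Genes that work with the mitoribosome were read from 4 lists. In labelled Acadl KO / Acadvl wt against wild-type hearts, 9 of 25 assembly factors rose and 4 fell, which is 36% and 16% of the list beside 19.6% and 17.6% of all genes. The RNA methyltransferase Mrm3 (Rnmtl1 in the files) rose by 1.00 (SE 0.13), the helicase Ddx28 by 0.86 (SE 0.10), Mrm1 by 0.50 and Fastkd2 by 0.49, while Ybey, an endoribonuclease, fell (-0.62). Of 12 genes of mitochondrial transcription and RNA processing 8 rose (66.7%) and 0 fell, including the RNA polymerase Polrmt (0.65, SE 0.09), the helicase Supv3l1 (0.65), the tRNA-processing protein Trmt10c (0.54) and the DNA packaging factor Tfam (0.43). Of 16 translation factors 2 rose, Taco1 (0.47) and Oxa1l (0.29), and 2 fell, Mtfmt (-0.47), which formylates the initiator, and Pdf (-0.43), which removes the formyl group, 12.5% in each direction and so below the shares of all genes. Of 6 mitoribosomal proteins under other symbols 0 rose and Dap3, a GTP-binding protein of the small subunit, fell (-0.18, SE 0.06).

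In Acadvl KO against Acadl Het / Acadvl wt hearts 4 assembly factors rose (16%) and 2 fell (8%), 2 transcription and RNA processing genes rose (16.7%) and 1 fell, 0 translation factors rose and 3 fell (18.8%), and 0 proteins under other symbols rose and 1 fell. With 12.9% of all genes higher and 11.5% lower, these counts were near the background. Dap3 fell there by 0.33 on the log2 scale, and Ddx28 (0.66), Mrm1 (0.50) and Polrmt (0.41) rose. For labelled Acadl KO against Acadl Het the rises and falls of these lists were 10 and 4, 8 and 1, 5 and 2, and 0 and 1, or 40%, 66.7%, 31.2% and 0% higher beside 26.7% of all genes. Among cytosolic ribosomal proteins 43 of 84 (51.2%) rose and 0 fell in labelled Acadl KO / Acadvl wt against wild-type hearts (median 0.20), and 8 (9.52%) rose and 0 fell in Acadvl KO hearts (median 0.08). In labelled Acadl KO against Acadl Het hearts 21 of the 84 rose (25%) and 1 fell (median 0.09), where 26.7% of all genes were higher. Oxidative phosphorylation subunits, which include partners of the mitoribosome's products, had 7 rises (8.43%) and 1 fall among 83 in labelled Acadl KO / Acadvl wt hearts (median 0.04) and 3 rises (3.61%) and 14 falls (16.9%) in Acadvl KO hearts (median -0.14). The difference between these lists and the mitoribosomal genes was not tested.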

How the data were processed

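Hearts were profiled as 24 polyA RNA libraries. The deposited values used were whole read counts per gene, made by the authors with featureCounts 1.5.2 over exons, taking primary alignments, ignoring strand and counting a read for every gene it overlaps, per the file headers; STAR 2.5.1b comes from the submitters' processing notes, which give featureCounts as 1.5.3, and the build is mm10 (GRCm38). Library totals, 34320838 to 51743114 counts, limit the precision.

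All 24 libraries entered 1 quasi-likelihood fit in R 4.3.3 with edgeR 4.0.16: filterByExpr by genotype (15804 genes), TMM factors, terms for genotype and RNA isolation batch, and Benjamini-Hochberg adjustment over all genes, threshold 0.05, two-sided. Standard errors follow from the F statistic. DESeq2 1.42.0 and limma 3.58.1 (voom) were alternatives. The fit was tested on simulated counts with 200 changed genes. Of 1.2-fold changes it recovered 1.49% for labelled Acadl KO / Acadvl wt against wild type and 14.9% for labelled Acadl KO against Acadl Het. For Acadvl KO against Acadl Het / Acadvl wt it recovered 2.99%. At 1.5-fold these shares were 43.3%, 71.6% and 49.3%, and at 2-fold 75.4%, 87.5% and 75.8%. Many more genes were called in the data, so the shares may differ there. A gene that was not called is not shown to be unchanged. Libraries of 1 genotype differed by a chi-square of 14.9 to 528 per degree of freedom, and each was kept as its own sample.

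The members and lists were chosen with earlier results of these data known. Named genes were the 12 largest called rises and falls in each of 4 comparisons, the 3 highest and lowest levels per subunit, the Mrps18 genes and up to 4 called genes per related list. Mrpl44, the genes that stayed within 0.1 of 0, those with overlapping exons and the head-to-head neighbours were named after their values were seen, and Mrps30 and Mrps36 for their known place.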

Additional observations from a re-analysis of the deposited data

Results flagged for a closer look

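The highest or lowest library of a group was compared with its nearest neighbour for the 40 named genes, both subunit sums and their ratio. In 215 groups 15 libraries lay far from the others, where chance flags about 1 in 20 groups. Acadl Het / Acadvl Het, with 3 libraries, was too small for this check and was left out. It holds the library with 17.3% of Rn45s reads. The value given is the gap to the nearest library divided by the group's range. Labelled Acadl KO / Acadvl wt replicate 2 was far above its group in Mrpl35 (0.903; 45.8 CPM against 36.1 to 37.1), Mrps17 (0.889; 54.7 against 39.4 to 41.1) and Mrps35 (0.882; 73.2 against 68.1 to 68.7), and its replicate 4 was far below in Mrps18c (0.923; 17.4 against 19.0 to 19.2). In labelled Acadl KO / Acadvl Het hearts, replicate 2 was low in Mrpl17 (0.754; 45.0 CPM against 51.3 to 53.4).

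Among Acadvl KO hearts, replicate 3 was high in Mrpl22 (0.882) and Mrps22 (0.840), replicate 4 was low in Mrpl23 (0.957), Mrps17 (0.874) and Mrps26 (0.930), and replicate 1 was low in Mrpl39 (0.868). In Acadl Het / Acadvl wt hearts, replicate 3 was high in Mrpl1 (0.928) and replicate 2 in Mrpl17 (0.870). In wild type, replicate 1 was low in Mrpl55 (0.892; 45.4 CPM) and replicate 3 was high in Mrps18b (0.870; 33.0 CPM against 29.4 to 29.9).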

How the results depend on the processing

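Sample titles carry numbers of unstated meaning, of which labelled Acadl KO and Acadl Het hearts share 3; the other comparisons share 0 or 1, so that no paired analysis was possible for them. The deviations of the 3 pairs correlated at -0.0607, 0.0819 and 0.373, and 2 of the 6 libraries correlated best with their own number. Those 2 form the pair at 0.373, and 3 pairs are too few to show the meaning of the number. With it as a replicate block, a choice made after seeing the data, 3 of the 44 genes were called in 20 libraries with 4 residual degrees of freedom, and Mrpl28 had a log2 change of 0.06. The calls of labelled Acadl KO / Acadvl wt against wild type (39 genes) fell to 1 within batch 1, 23 within batch 2 and 23 without the libraries above 10 CPM of Alb. Those of labelled Acadl KO against Acadl Het (44) fell to 19 within batch 1. Those of Acadvl KO against Acadl Het / Acadvl wt (22) fell to 0 within batch 1, 11 within batch 2 and 14 without the Alb libraries. The test for any genotype (45) gave 4 within batch 1 and 25 within batch 2. Labelled Acadl KO against Acadvl KO (9) gave 0 within either batch and without the Alb libraries and 0 to 10 with 1 library left out. These settings use fewer libraries; batch 1 holds 1 labelled Acadl KO / Acadvl wt, 1 Acadvl KO and 1 Acadl Het / Acadvl Het library, each assumed to vary like the others, so its lost calls do not show dependence on batch. The leave-one-out counts of the first 3 were 30 to 36, 41 to 48 and 16 to 23. DESeq2, limma voom, DESeq2 size factors, no filter, no batch term and no Rn45s counts kept these counts within 1.5 times, and no called gene of the 4 comparisons changed sign under them, within a batch or without the Alb libraries. Assigning genes by structure moved the large to small ratio to 2.316 in labelled Acadl KO / Acadvl wt, 2.328 in labelled Acadl KO / Acadvl Het, 2.384 in Acadvl KO, 2.43 in Acadl Het / Acadvl Het, 2.408 in Acadl Het / Acadvl wt and 2.376 in wild type. Without the Alb libraries no Acadl Het / Acadvl Het library remained, so its comparison, the interaction and the test for any genotype gave no value, and the 37 calls of labelled Acadl KO against Acadl Het come from Acadl Het / Acadvl wt alone.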

Other observations

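Of the 77 genes, 27 (35.1%) had a neighbour on the opposite strand whose start lay within 1000 bases, head to head, beside 9.26% of all genes with a single locus. Mrpl46 and Mrps11 are such a pair, with starts 42 bases apart: in labelled Acadl KO / Acadvl wt against wild-type hearts Mrpl46 rose (0.36, edgeR adjusted p = 0.005725), and Mrps11 had a log2 change of 0.02 (edgeR adjusted p = 0.9023). Mrpl47 rose (0.55) beside Ndufb5 (-0.06, edgeR adjusted p = 0.573), a complex I subunit, and Mrps34 (0.41) beside Eme2 (-0.15, edgeR adjusted p = 0.5091). Mrps12 (-0.22, edgeR adjusted p = 0.1298) shares its start region with Sars2, the mitochondrial seryl-tRNA synthetase, which rose (0.46, edgeR adjusted p = 0.001438). Mrpl43 (0.47) and Peo1, the mitochondrial DNA helicase Twinkle, 116 bases away, both rose, Peo1 by 1.02. Of the 26 pairs with both genes tested, 3 were called in the same direction against wild type and 1 in opposite directions. In 9 only the mitoribosomal gene was called, in 4 only its neighbour, and in 9 neither. For labelled Acadl KO against Acadl Het these counts were 4, 0, 10, 6 and 6. For Acadvl KO against Acadl Het / Acadvl wt they were 1, 0, 5, 3 and 17. Of all genes, 37.2%, 54.7% and 24.4% were called in these comparisons. Head-to-head pairs of other genes were not counted. The nearest mitoribosomal gene to Acadl was Mrpl44, 12.9 Mb away. Nearest to Acadvl were Mrpl55 (10.8 Mb), Mrpl22 (11.8 Mb) and Mrps23 (18.2 Mb). Mrpl22 was among the largest falls in Acadvl KO hearts. Mrpl55 and Mrps23 led the calls of labelled Acadl KO against Acadvl KO. The gene 2610507I01Rik, 55 bases from Mrpl55, had a log2 change of -4.84 in Acadvl KO against Acadl Het / Acadvl wt hearts. Against wild type it was -0.74 in labelled Acadl KO / Acadvl wt hearts. The part of sequence linked to Acadvl was not tested.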
